A study of Mus musculus with 16 samples.

Results

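Adenosine metabolism and receptors were described in the mouse hippocampus from a list of 9 genes: Adk, Nt5e, Entpd1, Entpd2, Adora1, Adora2a, Adora2b, Adora3 and Slc29a1. A gene counted as measured when at least 1 probe set of the array carried its symbol and no other, and where a gene had several, its brightest one by mean over the 16 arrays was used. By that rule 5 of the 9 were measured, among 22180 genes in all: Adk, Nt5e, Entpd1, Adora3 and Slc29a1. The only probe set of Entpd2 also carries the symbol Npdc1, so no value is given for it. Adora1, Adora2a and Adora2b are not analysed here.

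Extracellular ATP is cut stepwise to adenosine by enzymes on the cell surface. Entpd1 (CD39) and Entpd2 remove phosphates from ATP and ADP, and Nt5e (CD73) turns AMP into adenosine. Slc29a1 (ENT1) carries adenosine across the cell membrane in both directions, and Adk, adenosine kinase, turns it back into AMP inside the cell, in adult brain mainly in astrocytes. Adenosine acts on receptors coupled to G proteins, among them the A3 receptor encoded by Adora3, and is known as an endogenous anticonvulsant through the A1 receptor.

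The study had 4 groups of 4 C57BL/6 mice aged 8 to 10 weeks. Astro-D2KO mice carried a floxed Dio2 (D2) and a glial cre. Control mice carried the same kind of cre with a wild-type Dio2. The sources used here do not give the promoter that drives the cre. Dio2 encodes the deiodinase that makes the active thyroid hormone T3 from T4. Every mouse of all 4 groups, saline ones included, received lithium chloride at 10 mEq/kg. After 18 h the SE mice received pilocarpine at 65 mg/kg, which brings on status epilepticus (SE), and the others received saline. Pilocarpine and seizures cannot be told apart in these groups. The sources used here do not give the time from pilocarpine to tissue collection, or the sex of the mice. Values are log2 levels made with RMA, and 1 unit is a 2-fold difference.

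The question behind the comparisons was whether SE changes expression in the hippocampus and whether loss of Dio2 in astrocytes alters that change. Correlations between arrays across genes ran from 0.972 to 0.994, and no array was a copy of another. Prox1, Wfs1 and Zbtb20, genes of hippocampal granule and pyramidal cells chosen after their values were seen, had levels between 8.25 and 10.18 over the 16 arrays, and the table holds no detection call. Dio2 was lower in Astro-D2KO mice under saline, with levels of 6.75, 6.52, 7.09 and 6.77 against 7.87, 8.25, 8.17 and 8.28 in control mice. That is a difference of -1.36 (two-sided exact permutation p = 0.0286, the smallest that 4 against 4 allows). After SE the levels were 8.91, 7.03, 7.17 and 7.12 in Astro-D2KO mice and 9.51, 9.11, 9.24 and 7.99 in control mice (difference -1.41, exact permutation p = 0.0571). The library labelled Astro-D2KO SE replicate 1 thus stood above the other arrays of its group, against its label, and the library labelled control SE replicate 4 stood below those of its own. Without both, the Dio2 difference after SE was -2.18 (limma adjusted p = 1.35e-06), beside -1.41 (limma adjusted p = 0.532) with all arrays. It was -1.86 (adjusted p = 0.0262) without the first of them alone and -1.73 (adjusted p = 0.129) without the second alone. Since Dio2 itself singled out these libraries, the larger values are a description and support nothing. Counts of members and of purine genes over both genotypes are given with and without both. A second, dimmer Dio2 probe set differed by -0.085 under saline and -0.12 after SE (exact permutation p = 0.686 and 0.657), and nothing here tells which exons either one reads.

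Entpd1, the ectonucleotidase that starts the breakdown of extracellular ATP, rose after SE in both genotypes. In Astro-D2KO mice its levels were 7.73, 7.52, 7.73 and 7.90 after SE and 6.86, 7.01, 6.95 and 6.77 under saline. In control mice they were 7.89, 7.87, 7.67 and 7.82 after SE and 7.12, 7.03, 7.09 and 6.86 under saline. Every SE array was above every saline array, in either genotype and across both. The rise was 0.82 ± 0.091 in Astro-D2KO mice (log2 difference ± SE of the fit, 1.77-fold, limma adjusted p = 6.7e-06). It was 0.79 ± 0.091 in control mice (1.72-fold, limma adjusted p = 9.78e-06). Over both genotypes it was 0.80 ± 0.064, with a 95% interval from 0.67 to 0.94 and a limma adjusted p of 4.64e-08. The call held in each of the 16 fits that left out 1 array, and the rise over both genotypes was between 0.77 and 0.84 in them.

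**Figure D1:**
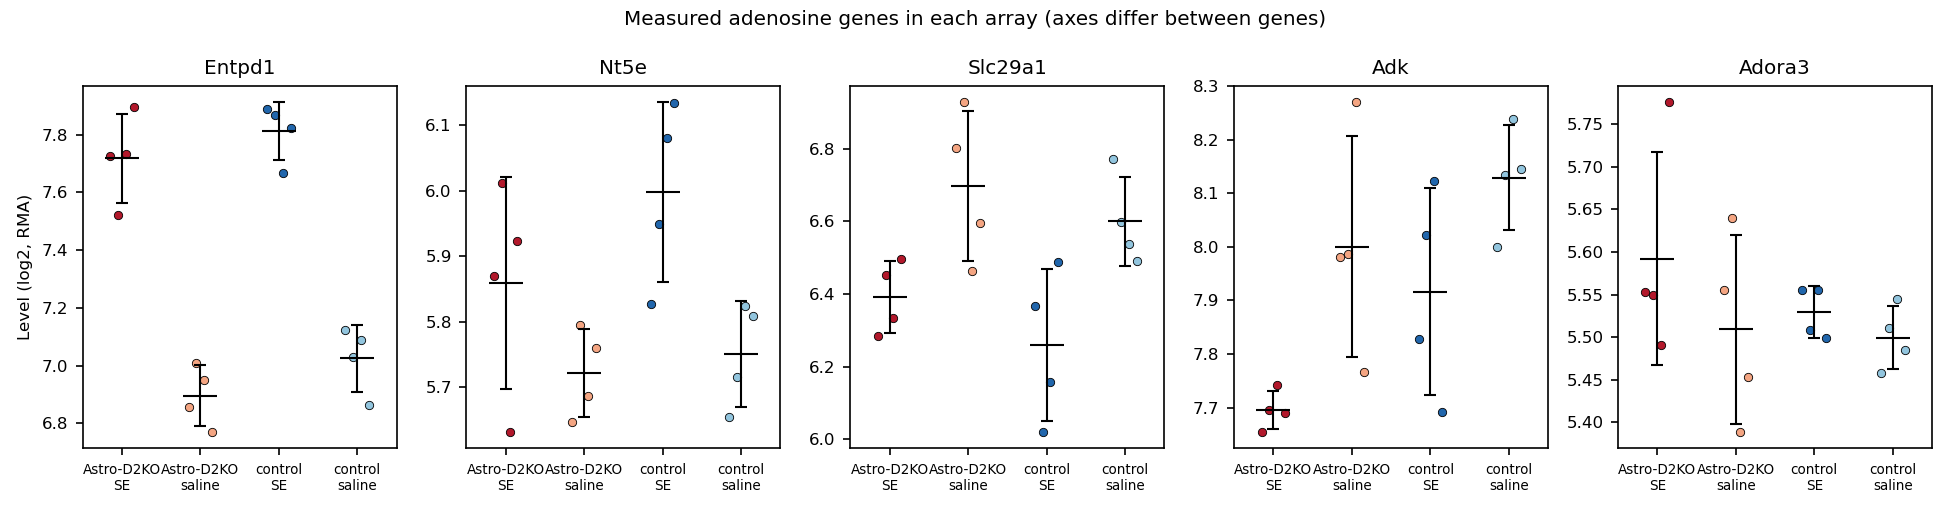
Log2 level (vertical axis, RMA units, scaled separately for each gene) of the 5 measured adenosine genes in each of the 16 arrays. Points are arrays, the horizontal mark is the group mean and the bars are 1 SD (n = 4). Entpd1 lies between 7.52 and 7.90 in SE arrays and between 6.77 and 7.12 in saline arrays, with no overlap, while the ranges of Adora3 overlap between SE and saline within each genotype.

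The 2 windows around annotated starts of Entpd1, from 250 bases before to 50 after the start, are shown because Entpd1 was the member with a call in both genotypes. They come from RefSeq (GRCm38.p6, plus strand), which held windows for all 5 measured members. Capitals mark TGACG, the core of the cAMP response element, on either strand.
Entpd1, chr19:40612116-40612415: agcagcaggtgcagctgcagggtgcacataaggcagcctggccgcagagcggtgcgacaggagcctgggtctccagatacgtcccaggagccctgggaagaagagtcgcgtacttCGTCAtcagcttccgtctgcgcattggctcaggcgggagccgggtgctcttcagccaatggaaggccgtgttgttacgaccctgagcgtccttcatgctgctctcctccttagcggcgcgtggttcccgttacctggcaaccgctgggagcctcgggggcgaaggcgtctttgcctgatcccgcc
Entpd1, chr19:40659520-40659819: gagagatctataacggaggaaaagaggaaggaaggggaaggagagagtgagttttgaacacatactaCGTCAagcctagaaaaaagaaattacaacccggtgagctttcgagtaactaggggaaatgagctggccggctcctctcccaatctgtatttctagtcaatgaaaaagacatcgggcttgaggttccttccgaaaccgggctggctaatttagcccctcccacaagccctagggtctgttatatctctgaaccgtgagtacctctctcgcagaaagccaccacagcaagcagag
Each window held 1 TGACG, as CGTCA on the printed strand, and 20.8% of all 32851 windows of that length held at least 1. Neither held the full element TGACGTCA, which contains TGACG on both strands (1.79% of windows), or the AP-1 element TGANTCA (7.81%). Among the other measured members TGACG was in 1 of 2 windows of Adk, 1 of 8 of Slc29a1, some of which overlap, and 0 of 1 each of Nt5e and Adora3. The full element was in none of these members' windows, and TGANTCA was in the single window of Adora3 and in no other of them. A match of letters is a description of the window and not a binding site.

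Nt5e, the enzyme of the next step, which forms adenosine from AMP, was higher after SE by a small amount. Its levels in Astro-D2KO mice were 5.87, 6.01, 5.63 and 5.92 after SE and 5.65, 5.79, 5.69 and 5.76 under saline. In control mice they were 5.83, 5.95, 6.08 and 6.13 after SE and 5.65, 5.72, 5.82 and 5.81 under saline. Under saline Nt5e averaged 5.72 in Astro-D2KO and 5.75 in control mice, just below the array medians of 5.77 to 5.82. After SE the averages were 5.86 and 6.00, above those medians. Whether these levels lie above background is not known. The groups overlapped in Astro-D2KO mice, where replicate 3 after SE was lowest, and just missed overlap in control mice. The difference was 0.14 ± 0.090 in Astro-D2KO mice (adjusted p = 0.332) and 0.25 ± 0.090 in control mice (adjusted p = 0.0585), neither of which passed in limma. Over both genotypes the rise of 0.19 ± 0.064 (1.14-fold) passed with a limma adjusted p of 0.0269. It was 0.17 (adjusted p = 0.0784) without Astro-D2KO SE replicate 1 and control SE replicate 4. It also missed the threshold without any 1 of Astro-D2KO SE replicates 2 and 4, Astro-D2KO saline replicate 1, control SE replicates 3 and 4 and control saline replicate 1, with a highest adjusted p of 0.0619.

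Slc29a1, the equilibrative adenosine transporter, was lower after SE. Levels in Astro-D2KO mice were 6.28, 6.45, 6.33 and 6.49 after SE and 6.80, 6.93, 6.46 and 6.60 under saline. Levels in control mice were 6.37, 6.02, 6.16 and 6.49 after SE and 6.77, 6.60, 6.54 and 6.49 under saline. The ranges overlapped slightly in Astro-D2KO mice and met without crossing in control mice, at replicate 4 of each control group. The difference was -0.31 ± 0.11 in Astro-D2KO mice (limma adjusted p = 0.0672), which did not pass, and -0.34 ± 0.11 in control mice (limma adjusted p = 0.0381). Over both genotypes Slc29a1 fell by 0.32 ± 0.080 on the log2 scale (1.25-fold lower, limma adjusted p = 0.0042), and this call held without any 1 array. The call in control mice was lost without any 1 of control SE replicates 2 and 3 and control saline replicates 1, 2 and 3, at differences between -0.36 and -0.26. A second, dimmer probe set of Slc29a1, with a mean of 3.26, differed by 0.092 over both genotypes, in the opposite direction. The mean of the 2 probe sets gave -0.12 (adjusted p = 0.145), so the call rests on the brighter one.

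Adk, the kinase that clears adenosine inside cells, was also lower after SE. Levels in Astro-D2KO mice were 7.65, 7.70, 7.74 and 7.69 after SE and 7.98, 7.99, 8.27 and 7.77 under saline, without overlap. Levels in control mice were 7.83, 8.02, 8.12 and 7.69 after SE and 8.00, 8.13, 8.24 and 8.15 under saline, and the groups overlapped. The fall in Astro-D2KO mice was 1.24-fold, a difference of -0.30 ± 0.11 with a limma adjusted p of 0.0495. The difference in control mice was -0.21 ± 0.11 (adjusted p = 0.17), which did not pass. Over both genotypes Adk fell by 0.26 ± 0.074 on the log2 scale (1.20-fold lower, limma adjusted p = 0.0116), and that call held without any 1 array. The call in Astro-D2KO mice was lost in 13 of the 16 fits that left out 1 array, among them Astro-D2KO SE replicate 1 (-0.29, adjusted p = 0.104), and the other 3, where it held, left out replicate 4 of Astro-D2KO saline, or replicate 3 or 4 of control SE. Without Astro-D2KO SE replicate 1 and control SE replicate 4 together the difference was -0.29 (adjusted p = 0.0764).

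Adora3, the A3 adenosine receptor, did not pass in any comparison. Its levels in Astro-D2KO mice were 5.55, 5.55, 5.49 and 5.78 after SE and 5.55, 5.64, 5.39 and 5.45 under saline. In control mice they were 5.56, 5.51, 5.55 and 5.50 after SE and 5.46, 5.51, 5.54 and 5.48 under saline. Without a detection call in the table, whether these levels lie above background is not known. The difference after SE was 0.057 ± 0.054 over both genotypes, with a 95% interval from -0.057 to 0.17 (limma adjusted p = 0.475).

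**Figure D2:**
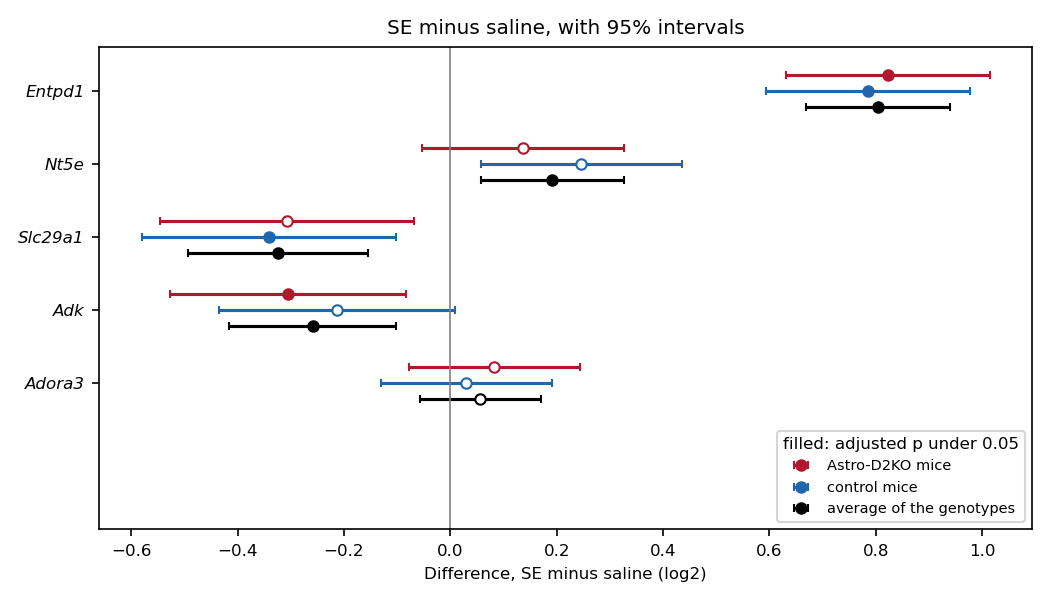
Difference of SE minus saline (horizontal axis, log2) for the 5 measured genes in Astro-D2KO mice, in control mice and averaged over the genotypes, with 95% intervals of the limma fit. Filled points have an adjusted p under 0.05. Entpd1 is filled in all 3 rows, at 0.82, 0.79 and 0.80, and Adora3 in none.

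Counted together, 2 of the 5 measured members passed in Astro-D2KO mice, Entpd1 higher and Adk lower. There limma called 20.1% of all genes, 7.49% higher and 12.6% lower. In control mice 2 passed, Entpd1 higher and Slc29a1 lower, where it called 22.1%, with 8.42% higher and 13.7% lower. Over both genotypes 4 passed, with Entpd1 and Nt5e higher and Slc29a1 and Adk lower, where it called 32.6%, with 12.1% higher and 20.6% lower. The members' shares are made of few genes and were not tested against these. Arrays of SE and saline did not overlap for 2 of 5 members in Astro-D2KO mice (24.6% of all genes), 3 of 5 in control mice (22.1%) and 1 of 5, Entpd1, over both genotypes (12.2%). The comparison over both genotypes uses the same arrays as the other pair and is no separate evidence. Its median over the 5 members was 0.057, beside -0.0084 over all genes. Without Astro-D2KO SE replicate 1 and control SE replicate 4, 1 member passed in Astro-D2KO mice, 2 in control mice and 3 over both genotypes.

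No measured member passed between genotypes. Between Astro-D2KO and control mice 0 of 5 passed under saline, after SE, over both treatments and in the interaction, and limma called 0% of all genes in each of these. At an unadjusted p under 0.05, limma gave 885 of the 22180 genes and 0 members under saline, 1358 and 0 after SE, 1191 and 1 over both treatments, and 1031 and 0 in the interaction. The arrays of the genotypes overlapped for all 5 members under saline, where 2.61% of genes did not overlap, and after SE, where 2.94% did not. The 1 member was Adk, with -0.17 ± 0.074 over both treatments (95% interval from -0.33 to -0.018, limma adjusted p = 0.901). After SE Adk averaged 7.70 ± 0.036 in Astro-D2KO mice and 7.92 ± 0.19 in control mice (SD, n = 4 each).

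For Entpd1 the rise in Astro-D2KO mice exceeded that in control mice by 0.037 ± 0.13, with a 95% interval from -0.23 to 0.31. The same interval ran from -0.41 to 0.22 for Adk, from -0.38 to 0.16 for Nt5e, from -0.30 to 0.37 for Slc29a1 and from -0.17 to 0.28 for Adora3. Intervals this wide do not show that the genotypes act alike. With the 2 doubted libraries left out 0 of 5 members passed in each genotype comparison and in the interaction.

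**Figure D3:**
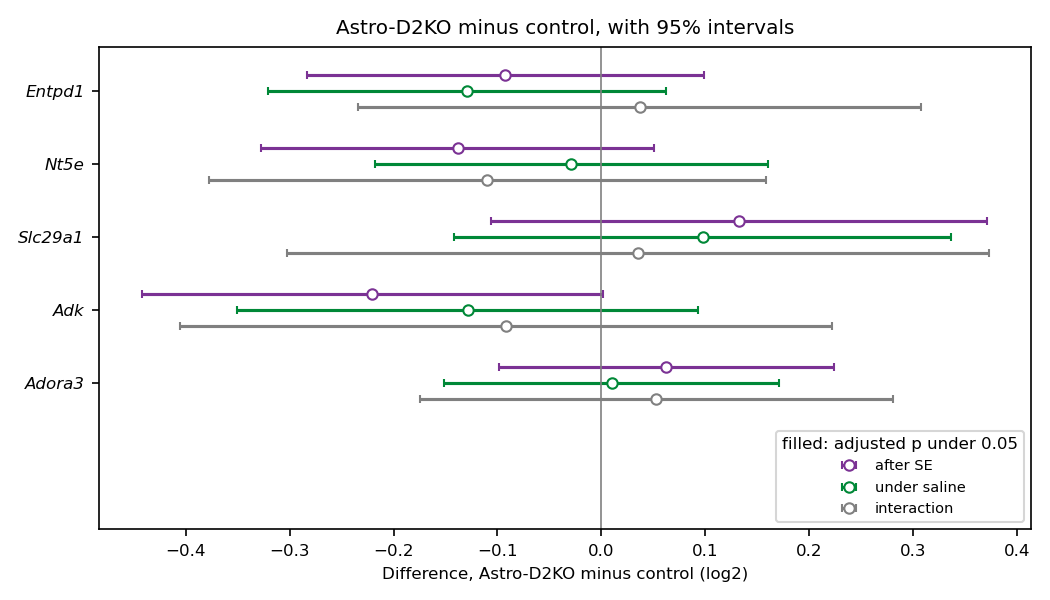
Difference of Astro-D2KO minus control (horizontal axis, log2) for the 5 measured genes after SE, under saline and for the interaction, the difference of the SE differences. Bars are 95% intervals of the limma fit, and every point is open because no adjusted p was under 0.05. The interval of Adk after SE runs from -0.44 to 0.0012.

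The wider purine system was read from 7 lists with 91 symbols, of which 82 were measured. Of these, 10 rose and 17 fell after SE in Astro-D2KO mice, 32.9% against 20.1% of all genes. In control mice 8 rose and 16 fell, 29.3% against 22.1%. Over both genotypes 12 rose and 26 fell, 46.3% against 32.6%. These shares were not tested against those of all genes, which include dim genes because no filter on level was used. Without the dimmest 25% of genes, limma called 2560 genes higher and 4683 lower over both genotypes, beside 2675 and 4558 with all 22180. The filtered counts come from fewer genes, so the share called there is above 32.6% and closer to the 46.3% of the unfiltered purine genes. The lists were chosen with earlier results of these data known. Without the 2 doubted libraries 10 purine genes rose and 25 fell over both genotypes. Between genotypes and in the interaction 0 passed. Changes that follow are log2 differences over both genotypes unless a genotype is named. The list counts that follow were not tested against the shares over all genes, 12.1% higher and 20.6% lower.

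Upstream of adenosine, Entpd7, an intracellular relative of Entpd1 that cuts nucleoside triphosphates, had the largest change of its list. Its levels in Astro-D2KO mice were 8.89, 8.87, 8.56 and 8.73 after SE and 8.17, 8.09, 7.66 and 7.93 under saline. Those in control mice were 8.55, 9.10, 8.73 and 9.12 after SE and 7.79, 7.91, 7.57 and 7.53 under saline. All SE arrays were above all saline arrays, and the rise was 0.99 ± 0.098 (limma adjusted p = 6.23e-07). Of the 8 measured members of that list of ectonucleotidases and phosphatases, 1 rose and 1 fell. The member that fell was Entpd5 (-0.22 ± 0.061), an enzyme of the endoplasmic reticulum. Among 8 intracellular 5′-nucleotidases, 1 rose and 5 fell, with a list median of -0.20. The rise was of Nt5c1a (0.88 ± 0.15), which makes adenosine from AMP in the cytosol. It passed in Astro-D2KO mice (1.15 ± 0.22, limma adjusted p = 0.00115) and not in control mice (0.61 ± 0.22, limma adjusted p = 0.0561). Nt5c (-0.44 ± 0.056), a deoxynucleotidase, Nt5c2 (-0.33 ± 0.062), which prefers IMP and GMP, and Nt5dc2 (-0.43 ± 0.13) fell. Nt5dc2 was at -0.54 ± 0.19 in Astro-D2KO mice (limma adjusted p = 0.049) and -0.33 ± 0.19 in control mice (limma adjusted p = 0.236).

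Among the other enzymes that convert adenosine and purines, 2 of 20 were higher and 5 lower, with a list median of -0.0024. Ada, adenosine deaminase, which turns adenosine into inosine, rose by 0.42 ± 0.074, and Ampd1, an AMP deaminase, rose by 0.71 ± 0.11. Both were dim. Under saline Ada averaged 5.60 and 5.56 and Ampd1 5.06 and 5.01 in Astro-D2KO and control mice, below the array medians of 5.77 to 5.82. Whether these levels lie above background is not known. Ak5 (-0.50 ± 0.067), an adenylate kinase of brain, and Ahcyl2 (-0.44 ± 0.073), a relative of the hydrolase that releases adenosine from S-adenosylhomocysteine, fell. Of the 6 other nucleoside transporters, 1 rose and 2 fell: Slc28a2 (0.24 ± 0.082), a concentrative carrier, rose, while Slc29a3 (-0.37 ± 0.079), the lysosomal ENT3, and Slc29a4 (-0.48 ± 0.17), the plasma membrane monoamine transporter, fell. Slc28a2 was at 0.068 ± 0.12 in Astro-D2KO mice (limma adjusted p = 0.754) and 0.41 ± 0.12 in control mice (limma adjusted p = 0.0171). Under saline Slc28a2 averaged 5.52 in control mice, below the array medians, and whether that lies above background is not known. Slc29a3 was at -0.55 ± 0.11 in Astro-D2KO mice (limma adjusted p = 0.00207) and -0.20 ± 0.11 in control mice (limma adjusted p = 0.224). Neither passed in the interaction. The mean of the Slc29a3 probe sets gave a smaller fall over both genotypes, -0.19 (adjusted p = 0.0315). Leaving out single arrays ended the call of Slc28a2 in 7 of 16 fits and that of Slc29a4 in 9, with adjusted p up to 0.076 and 0.0778. Without the 2 doubted libraries Slc28a2 was at 0.20 (adjusted p = 0.0534) and Slc29a4 still passed.

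On the side of ATP release 1 of 8 genes rose and 3 fell. Slc17a9, the vesicular nucleotide transporter, rose by 0.18 ± 0.058, and Calhm2 (-0.35 ± 0.077), Panx2 (-0.26 ± 0.080) and Panx1 (-0.31 ± 0.11), a channel that lets ATP out of cells, fell. After SE Calhm2 averaged 5.60 in Astro-D2KO and 5.53 in control mice, below the array medians of 5.77 to 5.82. Whether those levels lie above background is not known. Slc17a9 was at 0.27 ± 0.083 in Astro-D2KO mice (limma adjusted p = 0.0275) and 0.086 ± 0.083 in control mice (limma adjusted p = 0.524). The calls of Slc17a9 and Panx1 were lost in 5 and 10 of the 16 fits that left out 1 array, with adjusted p up to 0.0586 and 0.0765.

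Receptors for nucleotides had 3 of 14 higher and 5 lower, with a median of -0.019. P2ry12, the ADP receptor of resting microglia, had levels of 6.84, 6.73, 7.16 and 7.18 after SE and 8.20, 8.20, 8.48 and 7.60 under saline in Astro-D2KO mice. In control mice they were 7.38, 7.09, 6.85 and 7.10 after SE and 7.94, 8.03, 8.45 and 8.08 under saline. No SE array reached any saline array, and the fall was 2.11-fold (-1.08 ± 0.12, limma adjusted p = 1.9e-06). P2ry13, another ADP receptor of microglia, fell by 0.76 ± 0.089. P2ry2 (0.59 ± 0.11), which ATP and UTP activate, and P2ry6 (0.51 ± 0.18), a UDP receptor, rose. The call of P2ry6 was lost in 8 of 16 fits without 1 array (adjusted p up to 0.0797) and without the 2 doubted libraries (0.43, adjusted p = 0.0688).

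Downstream of the receptors, among G proteins, adenylyl cyclases and GIRK channels, 3 of 18 rose and 5 fell. Adcy8, an adenylyl cyclase driven by calcium, rose by 1.18 ± 0.081 (2.27-fold, limma adjusted p = 6.79e-09), and Adcy4, another adenylyl cyclase, by 0.61 ± 0.074. Gnai3, an inhibitory G protein subunit, rose by 0.35 ± 0.068, and Kcnj9, a subunit of the GIRK channels that adenosine receptors open, fell by 0.56 ± 0.10.

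**Figure D4:**
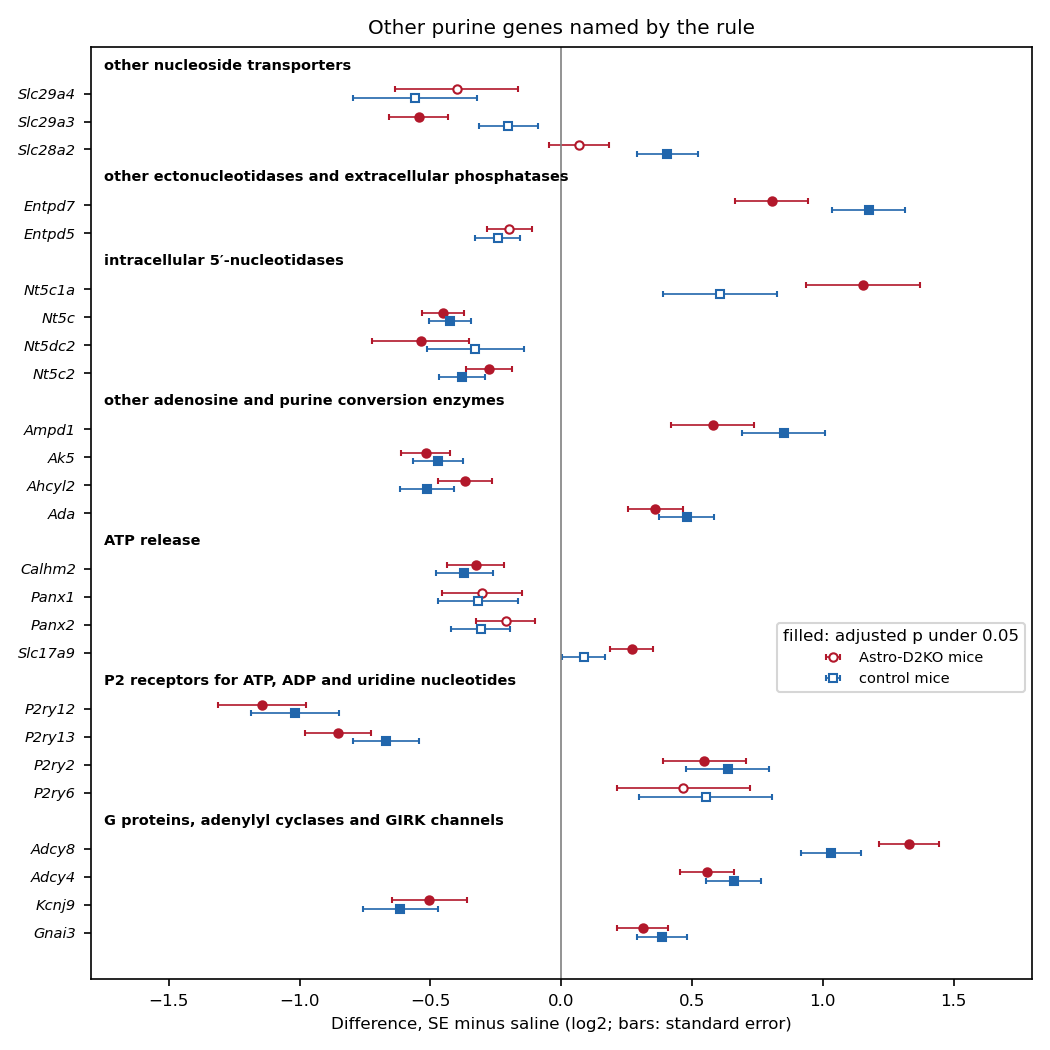
Difference of SE minus saline (horizontal axis, log2, bars 1 standard error of the fit) in Astro-D2KO mice (circles) and control mice (squares) for the other purine genes, grouped by list. Filled points have an adjusted p under 0.05 in that genotype. Entpd7 and Adcy8 lie to the right of 0 and P2ry12 and P2ry13 to the left in both genotypes.

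In whole tissue, fewer cells of a type and less RNA per cell cannot be told apart. Entpd1 is carried by microglia and by vessels in brain, and their marker lists were read beside it. Of 11 microglia markers, P2ry12 among them, 0 rose and 5 fell over both genotypes. The mean level of that list was between 7.23 and 7.43 after SE and between 7.53 and 7.72 under saline in Astro-D2KO mice, and between 7.18 and 7.52 after SE and between 7.46 and 7.76 under saline in control mice. That list was lower in every SE array than in every saline array in Astro-D2KO mice, opposite to Entpd1, and overlapped in control mice. Of 12 endothelial markers, 5 rose and 3 fell, and the list mean overlapped between all groups, from 7.14 to 7.41 and 7.13 to 7.36 in Astro-D2KO mice after SE and under saline, and from 7.13 to 7.44 and 7.13 to 7.42 in control mice. Of 12 astrocyte markers, the cells where Adk is mainly found, 1 rose and 3 fell. The astrocyte list mean had its lowest and highest arrays at 8.936 and 9.0003 after SE and 8.927 and 9.083 under saline in Astro-D2KO mice, and at 8.870 and 9.072 after SE and 8.995 and 9.118 under saline in control mice. Choroid plexus markers, of which 0 of 11 passed, had a list mean from 5.73 to 7.56 and 5.98 to 7.32 in Astro-D2KO mice after SE and under saline, and from 5.82 to 7.15 and 5.71 to 7.86 in control mice, with 1 array of each group above 7. Of 10 pericyte and smooth muscle genes, 1 rose and 4 fell. Their list mean was between 7.22 and 7.33 after SE and 7.28 and 7.52 under saline in Astro-D2KO mice, where it overlapped, and between 7.17 and 7.40 after SE and 7.42 and 7.55 under saline in control mice, where it did not. Of 9 genes measured from the striatal list (Drd1, Drd2, Gpr6, Rgs9, Pde10a, Adcy5, Penk, Tac1 and Rarb), 5 rose and 2 fell. Their list mean was higher in every SE array than in every saline array, as Entpd1 was. It was between 7.37 and 7.62 after SE and 6.91 and 7.15 under saline in Astro-D2KO mice. In control mice it was between 7.25 and 7.55 after SE and 6.90 and 7.16 under saline. Whether the dissections held striatal tissue was not tested.

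Of 9 oligodendrocyte genes, 0 rose and 1 fell over both genotypes, but 3 fell in Astro-D2KO mice and 0 in control mice. Their list mean in Astro-D2KO mice was between 8.40 and 8.83 after SE and 8.92 and 9.04 under saline, without overlap. In control mice it was between 8.81 and 9.25 after SE and 9.004 and 9.18 under saline, and overlapped. Between Astro-D2KO and control mice after SE the list median was -0.38, beside 0.0069 over all genes, and 0 of the 9 passed there or in the interaction. Neuronal genes had 3 of 10 higher and 5 lower over both genotypes, and their list mean overlapped between SE and saline in control mice and nearly met in Astro-D2KO mice, at 10.67 to 10.78 after SE and 10.65 to 10.67 under saline. Of 10 leptomeningeal genes 0 rose and 2 fell, with overlapping list means. Of 8 listed blood genes, 4 were measured (Ptprc, S100a8, S100a9 and Ly6g), and of these 1 rose and 0 fell. The hemoglobin genes of the list were not measured. S100a8 (4.07), S100a9 (5.39) and Ly6g (3.82) averaged below the array medians of 5.77 to 5.82, and whether they lie above background is not known. The blood list mean was between 4.85 and 4.96 after SE and 4.73 and 4.78 under saline in Astro-D2KO mice, without overlap, and between 4.79 and 4.90 after SE and 4.44 and 4.81 under saline in control mice, with overlap. The part of these cell types in the changes of Entpd1 and Adk was not tested.

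**Figure D5:**
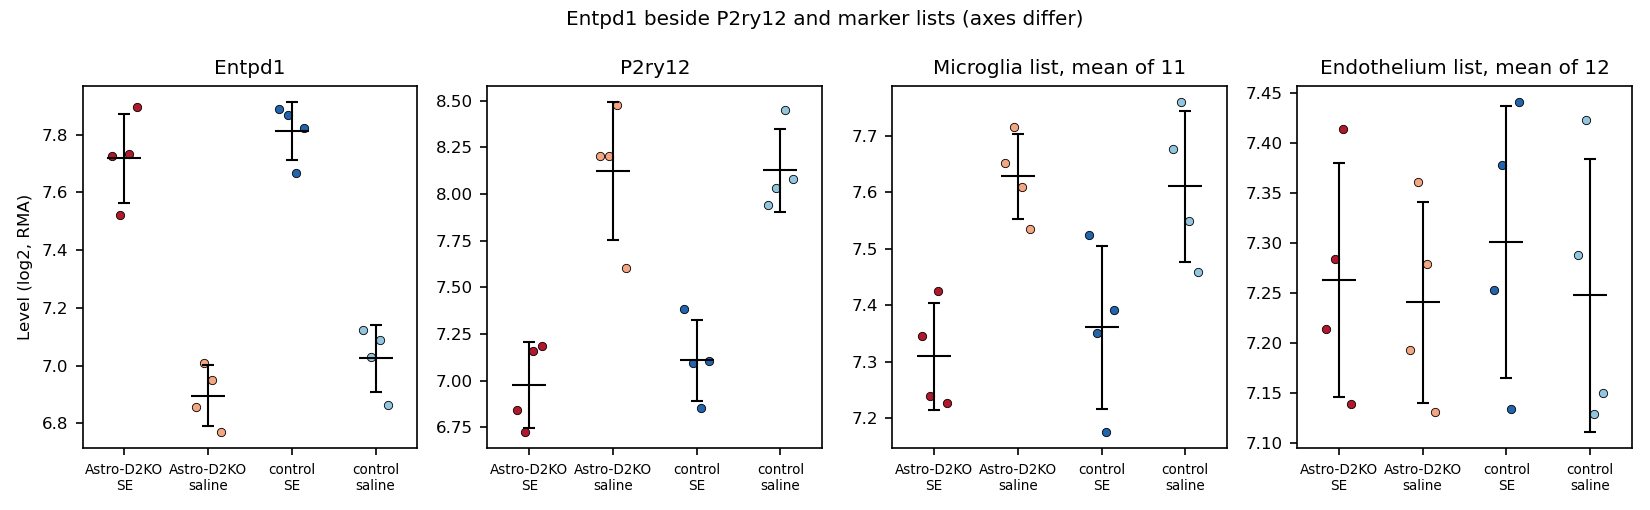
Log2 level (vertical axis, RMA units, scaled separately in each panel) of Entpd1 and P2ry12 and the mean of the microglia and endothelium marker lists in each array. Points are arrays, the horizontal mark is the group mean and the bars are 1 SD (n = 4). Entpd1 is higher after SE, P2ry12 is lower, and the endothelial list overlaps between all groups.

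The genes whose values over the 16 arrays were most like those of each called member were named by the root mean square difference after each gene was centred on its own mean. For Entpd1 they were Slc2a1, the glucose transporter of brain endothelium (0.094), Ntrk2, the BDNF receptor (0.13), and Arhgap31 (0.13), against 0.42 for Entpd1 about its own mean. For Slc29a1 (0.22 about its own mean) they were Dbn1 (0.092), Dus2 (0.10) and Lta4h (0.10). For Adk (0.20) they were Mrtfb (0.091), Aldh7a1 (0.094) and Tnik (0.097), and for Nt5e (0.15) Cd200r1 (0.085), Rnf24 (0.092) and Sec14l4 (0.094). The arrays share treatment, so likeness includes the common response to SE.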

How the data were processed

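The deposited table held 41345 probe sets on 16 Affymetrix arrays, 1 per mouse, 4 per group. The log2 values were made with RMA by the authors, per the submitters' processing notes. The log base was inferred from values between 1.70 and 13.79. GEO's platform annotation gave 23521 probe sets with 1 symbol, 1814 with several and 16010 with none. The probe set with the highest mean stood for each of 22180 genes, with no filter on level. Group means of all genes were estimated jointly with limma 3.58.1 (R 4.3.3), with empirical Bayes, 7 two-sided contrasts and Benjamini-Hochberg adjustment over all genes within a contrast (threshold 0.05). The fit was run on simulated data with independent normal noise, in which genes of the control SE arrays alone were altered. That run was a check of the code and supports no result given here. Dio2 was tested by an exact permutation test in SciPy 1.17.1. Members, lists and alternatives were chosen with earlier results of these data known. All measured members are named. In each purine list at most 4 called genes are named, by size over both genotypes, and each called member has 3 nearest genes. The 26 alternatives covered probe set choice, level filter, scaling, fit options, array weights, a replicate block and arrays left out. Arrays have no read depth, and their number limits precision. Nothing says that same-numbered mice share a litter or day: deviations of same-numbered arrays correlated between -0.29 and 0.34. P-values measure the spread between these mice as labelled. Pairing was therefore not used.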

Additional observations from a re-analysis of the deposited data

Results flagged for a closer look

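Arrays that stood apart from the other 3 of their group were looked for in 124 groups of 4 (31 genes), where chance alone marks about 1 group in 20; 8 groups were marked. None was a group of a measured member. For Dio2, the targeted gene, 1 Astro-D2KO SE array stood at 8.91. Ampd1 had 1 control SE array at 6.29, and P2ry6 had 1 at 8.14. Calhm2 had 1 control SE array at 5.75 and 1 control saline array at 6.10. P2ry13 had 1 control SE array at 6.35 and 1 control saline array at 7.33. Adcy8 had 1 Astro-D2KO SE array at 8.68.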

How the results depend on the processing

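Entpd1 kept its rise and its call after SE in both genotypes under each of the 26 alternatives, from 0.76 to 0.89 in Astro-D2KO mice and from 0.73 to 0.83 in control mice. Adk, over both genotypes, kept its call under 25 of 25 alternatives, Slc29a1 under 24 and Nt5e under 17. The number of members called after SE in control mice, 2, became 1 with the mean of probe sets or only the groups compared, 3 without the dimmest genes, where Nt5e passed, and 1 to 3 without single arrays. In Astro-D2KO mice 2 became 1 with the most variable probe set, with repeated quantile normalisation, with only the groups compared and without the 2 doubted libraries. It became 3 with array weights, where Slc29a1 passed, and was 1 to 2 without single arrays. Over both genotypes it was 3 to 4 without single arrays. The count of all genes called between genotypes, 0, became 1 under saline with only the groups compared. Without the 2 doubted libraries it became 1 under saline, 5 after SE, 2 over both treatments and 1 in the interaction. In both settings the 1 gene under saline was Dio2, and Dio2 was among the 5 after SE. Since Dio2 itself singled out these libraries, the counts without them are a description and support nothing. Without single arrays the count of all genes was 0 to 2 after SE and 0 to 1 over both treatments. No member was among these calls. The second Dio2 probe set gave -0.085 under saline (exact permutation p = 0.686).

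Some differences that did not pass changed sign. With the mean of probe sets the interaction of Slc29a1 was -0.020. Adora3 between genotypes under saline was -0.0086 with median centring and -0.016 with repeated quantile normalisation, which also gave -0.0017 for its SE difference in control mice. Without single arrays Adora3 ran from -0.034 to 0.050 under saline, and the interaction ran from -0.0083 to 0.10 for Adora3, -0.022 to 0.10 for Entpd1 and -0.044 to 0.11 for Slc29a1.

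The replicate block, with the number as a term, left 2, 2 and 4 members called in Astro-D2KO mice, control mice and over both genotypes, with 4109, 4576 and 6967 genes called. Only 3 of 16 arrays correlated best with an array of their own number. Among the purine lists over both genotypes, the replicate block moved the transporters that fell, 2, to 1, the ATP release genes that fell, 3, to 2, the P2 receptors that fell, 5, to 4, and the conversion enzymes that rose, 2, to 3. A trended, robust fit also moved the transporters to 1 and the conversion enzymes to 3, and the P2 receptors that rose, 3, to 2. Without the doubted libraries 0 transporters and 2 P2 receptors rose and 4 P2 receptors fell. Without the dimmest genes 4 conversion enzymes rose. With the mean of probe sets, repeated quantile normalisation or array weights, any list count that moved did so by 1. The causes were not tested.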
